A study of Mus musculus with 7 samples.

Results

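The alpha-arrestins and the NEDD4-type ubiquitin ligases that bind them were described as 10 genes of the 23930 in the deposited expression table, matched by symbol. The alpha-arrestins were Txnip, Arrdc1, Arrdc2, Arrdc3 and Arrdc4, and the ligases were Nedd4, Nedd4l, Itch, Wwp1 and Wwp2. The set was chosen by the RPM values (reads scaled to a common library total) of normocapnia and hypercapnia in these same libraries, so the difference between the exposures in each member, its call included, is given as a description and supports nothing. P-values for single members are given only for relations to cell type markers. The study asked how long exposure to high CO2 (hypercapnia) alters muscle satellite cells, the stem cells of skeletal muscle, relative to room air (normocapnia). There were 3 libraries of normocapnia (NC1, NC2, NC3) and 4 of hypercapnia (HC1, HC2, HC3, HC4), listed in that order wherever values follow each other, each from cells of mouse hind legs sorted for green fluorescence. All 7 came from mice with an inducible Pax7-GFP reporter, which received tamoxifen at 12 weeks of age in both groups and were killed at 16 weeks, after an exposure of 4 weeks. For mice with this reporter the methods of the study describe room-air controls matched for age, sex and genotype. In this reporter a Pax7-driven Cre switches on GFP for good, so the sort selects cells that had expressed Pax7 when tamoxifen was given and their descendants. The study also describes cardiotoxin injury of the tibialis anterior and gastrocnemius muscles in both groups before the sort, which the sample labels do not mention. Its methods place the muscle collection 3 days after the injury. The strain in the genotype label ends in 6 for NC1 and counts up by 1 per library to 12 in HC4, whereas the growth protocol gives C57/B6 for all. The labels do not say that each library is a separate animal, so p-values measure the spread between these libraries only.

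Alpha-arrestins are cytosolic adaptors that link membrane proteins to NEDD4-type ligases: short proline- and tyrosine-containing motifs in their tails bind the WW domains of the ligase, and the ligase attaches ubiquitin to the cargo, which is then internalised and sorted to the lysosome. Txnip differs from the others in that it also binds thioredoxin, and with Arrdc4 it lowers glucose uptake by removing glucose transporters from the cell surface. Transcription of Txnip and Arrdc4 is known to be driven by MondoA (Mlxip) or ChREBP (Mlxipl) with their partner Mlx, which bind paired E-box-like sequences when sugar phosphates are plentiful.

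The 250 bases before the start of transcription are shown for the 3 members that were lower in every hypercapnia library, so that the motif matches counted in them can be seen. They come from RefSeq on GRCm38.p6, are written on the strand of the gene, and lie outside the transcribed region given by the start. Capitals mark matches, on either strand, to 4 motifs: the E-box CACGTG, a pair of CACGNG letters 5 bases apart, the FoxO-type GTAAACA, and the CCAAT box (ATTGG where it lies on the other strand). The windows are chr3:96557707-96557956 on the plus strand for Txnip, chr7:68749239-68749488 on the minus strand for Arrdc4, and chr8:70839721-70839970 on the minus strand for Arrdc2.
Txnip: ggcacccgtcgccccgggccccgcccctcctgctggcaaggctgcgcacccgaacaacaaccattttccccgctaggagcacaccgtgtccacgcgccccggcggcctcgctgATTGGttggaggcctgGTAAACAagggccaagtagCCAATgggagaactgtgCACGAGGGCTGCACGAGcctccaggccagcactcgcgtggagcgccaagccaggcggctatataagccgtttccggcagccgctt
Arrdc4: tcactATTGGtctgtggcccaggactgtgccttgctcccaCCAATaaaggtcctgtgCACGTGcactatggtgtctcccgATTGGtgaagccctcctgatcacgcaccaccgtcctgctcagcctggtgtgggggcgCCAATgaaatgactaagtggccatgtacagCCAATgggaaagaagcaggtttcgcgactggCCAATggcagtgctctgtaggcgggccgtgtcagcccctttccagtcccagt
Arrdc2: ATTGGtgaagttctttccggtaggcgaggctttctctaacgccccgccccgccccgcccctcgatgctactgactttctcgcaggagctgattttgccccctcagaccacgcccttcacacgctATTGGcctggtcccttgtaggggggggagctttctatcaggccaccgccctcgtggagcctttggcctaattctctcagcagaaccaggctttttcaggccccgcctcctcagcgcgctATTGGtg

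Motifs were counted from 250 bases before to 50 bases after each start, in 32851 windows. RefSeq windows were found for 7 of the 10 members, 10 windows in all, and Nedd4l, Itch and Wwp1 were not matched. The paired CACGNG letters, the arrangement of a carbohydrate response element, stood in 16 of all windows (0.0487%), and among the members only in the Txnip window, starting at position -85 from the start. The Txnip window also held GTAAACA at -121, a motif in 3.65% of all windows, between 2 CCAAT boxes at -137 and -102. The Arrdc4 window held 1 E-box at -193, and the Wwp2 window 1 at -6, against 7.15% of all windows. An E-box also matches a single CACGNG, and none of the marked matches in the 3 sequences overlap another. CCAAT boxes, which are bound by NF-Y and occur in 37.4% of all windows, numbered 6 in the Arrdc4 window, and 26 windows of all (0.0791%) held as many. The Arrdc2 window held 3 CCAAT boxes, a number reached in 3.37% of windows, while 2 of the 3 Arrdc3 windows, which overlap, held the same single box, 1 Nedd4 window held 1, and the Arrdc1 window held none of the 4 motifs. A match is a match of letters only, and binding was not measured.

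Expression was measured with the Ion AmpliSeq mouse transcriptome panel, which reads 1 amplicon per gene, and is given in RPM. Levels are therefore compared between libraries for a gene and not between genes. Libraries held 14527445 to 23388710 reads, so that 3 reads, the limit a count of 0 allows, correspond to 0.128 to 0.207 RPM. This limit covers counting error only. All 10 members reached at least 1 RPM in a group, and the fewest reads behind a value were 33, for Nedd4l in NC3. The libraries did not hold satellite cell RNA alone. Pax7 itself ranged from 4.34 to 268 RPM, and 12 satellite cell markers summed to 1072 to 3968 RPM in normocapnia and 1096 to 1945 in hypercapnia, while 12 macrophage markers summed to 11558 to 33814 and 18885 to 23869 RPM, with none of either list at 0 in all libraries. Marker sums in normocapnia and hypercapnia were 82.1 to 227 and 105 to 329 RPM for neutrophils, 90.5 to 246 and 60.3 to 579 for endothelium, 1067 to 1897 and 973 to 2372 for fibro-adipogenic cells, and 244 to 4912 and 370 to 2484 for myofibers. Lymphocyte markers (1.17 to 7.03 RPM) and the 1 red blood cell marker in the table (0.201 to 15.4 RPM) were low. In bulk samples fewer cells of a type and less RNA per cell cannot be told apart. NC1 had the highest satellite cell sum and the lowest macrophage sum, and NC3 the reverse, and in NC3 the 10 most abundant genes took 16.63% of reads against at most 12.13% elsewhere.

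The libraries also fell into 2 classes of sex-linked expression that the labels do not give. NC1, NC2, HC1 and HC2 had 445 to 701 RPM of Xist and at most 0.178 RPM of 4 Y-linked genes in sum, and NC3, HC3 and HC4 had at most 0.125 RPM of Xist and 242 to 428 RPM of the Y-linked genes. The difference between the exposures within each class is given for each member as a description, and in the Y-linked class it rests on NC3 as the only normocapnia library.

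In limma on log2(RPM + 1) over all 23930 genes, with the thresholds of the study (unadjusted p under 0.05 and a fold above 1.5), 615 genes were called (2.57%), 343 higher in hypercapnia (1.43%) and 272 lower (1.14%). After Benjamini-Hochberg adjustment limma called 0 genes, with 1114 at an unadjusted p under 0.05; edgeR on the reads recovered from RPM also gave 0 (806 unadjusted) and DESeq2 gave 29 (1351 unadjusted). The split of calls depended on the tool, with 294 higher and 508 lower in edgeR and 519 and 785 in DESeq2, while median-of-ratios scaling alone, in limma, gave 317 higher and 295 lower. Among the 12504 genes averaging 1 RPM or more the median log2 difference was 0.16 in RPM, -0.01 in edgeR and -0.04 in DESeq2, and a member's difference is best read against that shift. Of the cell type markers 2 macrophage genes and 1 neutrophil gene were called higher and none lower.

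Of the 10 members 3 were called lower in hypercapnia, Txnip, Arrdc2 and Arrdc4, 0 were called higher and 7 were not called. After adjustment over all genes 0 members stayed under 0.05 in limma and in edgeR, and 1 of the 9 that DESeq2 tested did, Arrdc4. All 3 were alpha-arrestins, so that 3 of 5 alpha-arrestins and 0 of 5 ligases were called. The same 3 had every hypercapnia library below every normocapnia library, while the groups overlapped for the other 7. Over those 12504 genes the groups did not overlap for 7.72%, and were apart with hypercapnia lower for 3.63%. These shares stand for background only, because the members were chosen with this contrast known. The median log2 difference was -0.65 over the alpha-arrestins and 0.13 over the ligases, beside 0.02 over all genes and 0.16 over those averaging 1 RPM or more, so that the ligases lay close to the latter.

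Arrdc4, the paralogue of Txnip that shares its action on glucose uptake, had the largest difference of the 10 members. It measured 37.5, 67.0 and 77.5 RPM in NC1, NC2 and NC3, and 14.2, 12.2, 23.4 and 23.2 RPM in hypercapnia. The means were 60.7 ± 20.8 RPM (SD, n = 3) and 18.3 ± 5.88 RPM (SD, n = 4), a log2 difference of -1.67 with SE 0.36, or 3.18-fold lower on the log2(RPM + 1) scale. The lowest normocapnia library lay 14.1 RPM above the highest hypercapnia library, where counting error alone gives that gap an SD of 1.77 RPM. With median-of-ratios scaling the gap was narrower, between 30.1 and 21.0 scaled RPM. Within the Xist libraries the log2 difference was -1.85 and within the Y-linked libraries -1.69, without overlap in either. Over 16 alternative settings it lay between -2.03 and -1.46 and was called in each.

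Txnip, the thioredoxin-binding member, showed 497, 315 and 461 RPM in normocapnia and 155, 184, 228 and 311 RPM in hypercapnia. The means of 424 ± 96.5 (SD, n = 3) and 219 ± 67.8 RPM (SD, n = 4) gave a log2 difference of -0.97 with SE 0.29, a 1.96-fold lower level. The separation of the groups rested on a narrow gap: NC2 lay 4.26 RPM above HC4, less than the counting SD of that difference, 5.87 RPM. Scaled by median-of-ratios size factors the lowest normocapnia value was 323 and the highest hypercapnia value 276 scaled RPM, a wider gap. The difference was -1.22 in the Xist libraries and -0.79 in the Y-linked libraries. It stayed between -1.17 and -0.82 over the 16 alternatives, and the call was lost without NC1 and without NC3.

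Arrdc2, an alpha-arrestin whose cargo is less well known, was measured at a low level, from 82 to 207 reads per library. Its values were 9.23, 8.47 and 7.85 RPM in normocapnia, and 4.11, 4.77, 5.12 and 6.43 RPM in hypercapnia. The groups did not overlap, with means of 8.52 ± 0.694 (SD, n = 3) and 5.11 ± 0.977 RPM (SD, n = 4) and a log2 difference of -0.65 with SE 0.14, or 1.57-fold. The gap between NC3 and HC4 was 1.42 RPM, with a counting SD of 0.988 RPM. Within the Xist libraries the difference was -0.86 and within the Y-linked libraries -0.39, and the call was lost with a pseudocount of 5 RPM, in edgeR without a filter and without HC1. For all 3 genes HC1 and HC2, both Xist libraries, were lower in RPM than HC3 and HC4, the Y-linked ones. For Arrdc2 this order did not hold after median-of-ratios scaling, with HC2 at 5.0 and HC3 at 4.59 scaled RPM.

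Arrdc1 and Arrdc3 had overlapping groups. Arrdc1, which recruits ESCRT proteins to the plasma membrane and so buds vesicles, was at 30.5, 43.3 and 39.5 RPM in normocapnia and 33.4, 39.5, 36.7 and 41.6 RPM in hypercapnia, with a log2 difference of 0.01 (SE 0.14). Its spread was small in both groups, 6.58 and 3.56 RPM (SD). Arrdc3, an adaptor for the beta-adrenergic receptor and for integrin beta 4, was at 65.0, 36.4 and 47.5 RPM and then 52.0, 54.2, 51.8 and 64.9 RPM, a log2 difference of 0.20 (SE 0.21). The highest libraries for Arrdc3 were NC1 and HC4, 1 from each group. In the Xist and Y-linked libraries the difference was 0.00 and -0.01 for Arrdc1 and 0.12 and 0.28 for Arrdc3.

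**Figure D1:**
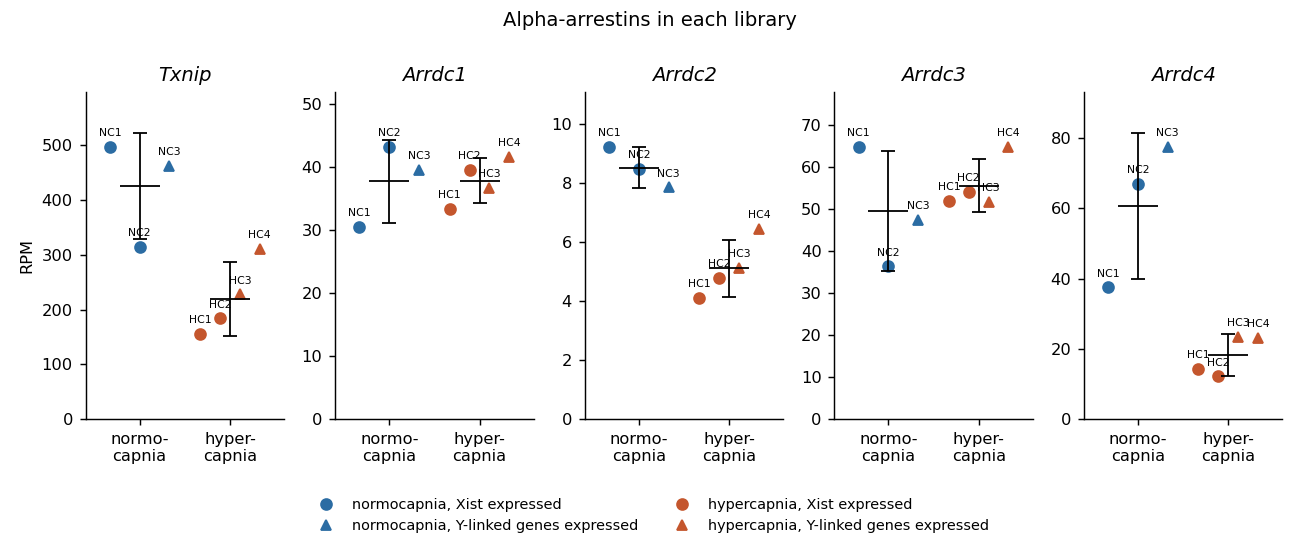
RPM of each alpha-arrestin in each library, with the axis from 0, circles for Xist libraries, triangles for Y-linked libraries, and the group mean with SD in black. For Arrdc4 the normocapnia libraries lie at 37.5 RPM or more and the hypercapnia libraries at 23.4 or less, for Txnip NC2 (315 RPM) and HC4 (311 RPM) almost meet, and Arrdc1 and Arrdc3 overlap.

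For each of the 5 ligases the difference between the groups was smaller than its SE. Nedd4, the founding member, which marks growth factor receptors and other cargo with ubiquitin, was at 124, 8.55 and 4.06 RPM in normocapnia and 17.0, 17.7, 49.6 and 32.5 RPM in hypercapnia. The highest library was 30.4 times the lowest, and both were normocapnia. The mean was 45.4 ± 67.7 RPM (SD, n = 3) in normocapnia and lower, 29.2 ± 15.3 RPM (SD, n = 4), in hypercapnia, whereas the log2 difference, which gives NC1 less weight, was 0.60 with SE 1.19. Its sign depended on the fit, from -0.47 in DESeq2 and in edgeR without a filter to 1.98 without NC1, the only 1 of the 16 alternatives that called Nedd4. It was -0.91 in the Xist libraries, where the groups overlapped, and 3.02 in the Y-linked libraries, the widest change between the classes among the members. Nedd4l, known for the removal of epithelial sodium channels, was at 8.70, 5.34 and 2.27 RPM and then 5.31, 7.19, 4.94 and 4.47 RPM. NC1 and NC3 were its extremes too, and the difference was 0.13 (SE 0.39), with -0.13 in the Xist and 0.80 in the Y-linked libraries.

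Wwp1 was at 139.5, 173 and 739.7 RPM in normocapnia, and at 336, 374, 175 and 221 RPM in hypercapnia. NC3 stood far above the other 2 normocapnia libraries, and the mean of that group, 351 ± 337 RPM (SD, n = 3), lay within its own spread of the hypercapnia mean, 276 ± 93.9 RPM (SD, n = 4), with a log2 difference of 0.01 (SE 0.67). Within the sex-linked classes the sign was opposite, 1.18 in the Xist libraries, where the groups did not overlap, and -1.91 in the Y-linked libraries, where NC3 is the only normocapnia library. NC3 is also the library with the highest macrophage sum, and class and library cannot be told apart there. In an interaction fit of exposure with class, which has 3 residual degrees of freedom, 21.2% of all genes were at an unadjusted p under 0.05, and 2 of the 10 members (Wwp1 and Itch) were, a share close to that background. After adjustment over all genes 766 of 23930 genes (3.2%) and, of the members, Wwp1 passed. With NC3 as the whole Y-linked normocapnia arm this restates that Wwp1 was high in NC3, and it is no test of the class.

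Itch, which limits inflammatory signalling and for which the immune phenotype of its mouse mutant is known, was at 102.9, 121 and 69.5 RPM and then 99.3, 99.8, 100.9 and 114 RPM, a log2 difference of 0.11 (SE 0.19). The difference was -0.16 in the Xist libraries and 0.62 in the Y-linked ones, again with NC3 alone for normocapnia in the latter. Wwp2, a close relative of Wwp1, was at 28.0, 53.8 and 26.2 RPM and then 44.2, 55.1, 38.9 and 30.9 RPM, a log2 difference of 0.27 (SE 0.32). NC2 and HC2 were its highest libraries, the groups overlapped, and the difference was 0.34 in the Xist and 0.39 in the Y-linked libraries.

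**Figure D2:**
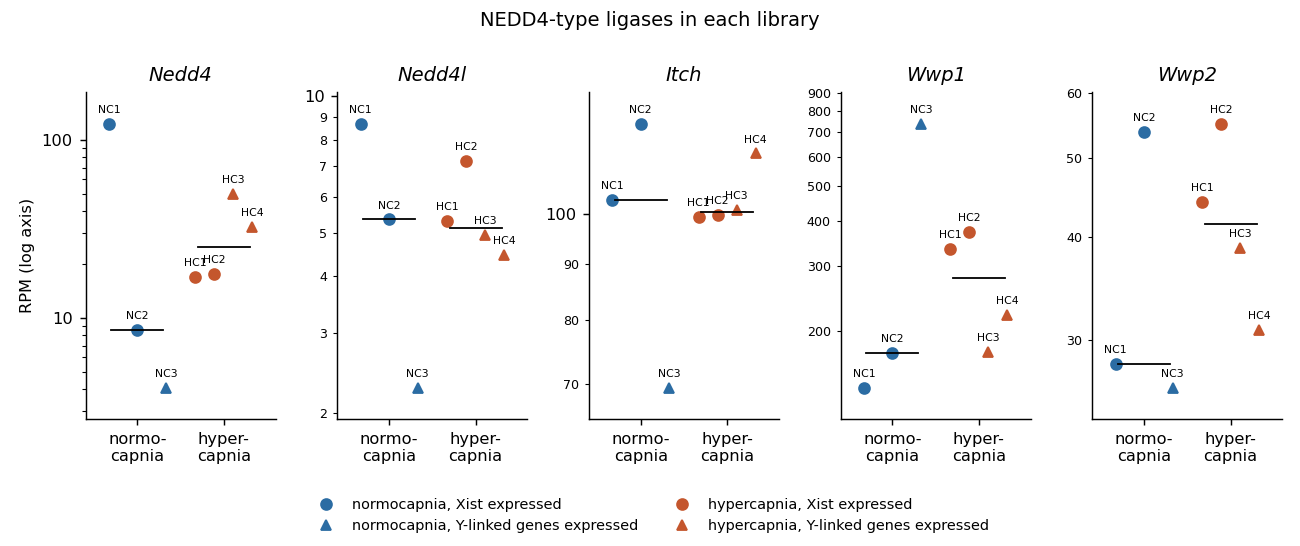
RPM of each NEDD4-type ligase in each library on log axes, with the group median as a black line and symbols as for the alpha-arrestins. Nedd4 spans 4.06 to 124 RPM and Wwp1 139.5 to 739.7 RPM, each within normocapnia alone, and the groups overlap for all 5 genes.

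**Figure D3:**
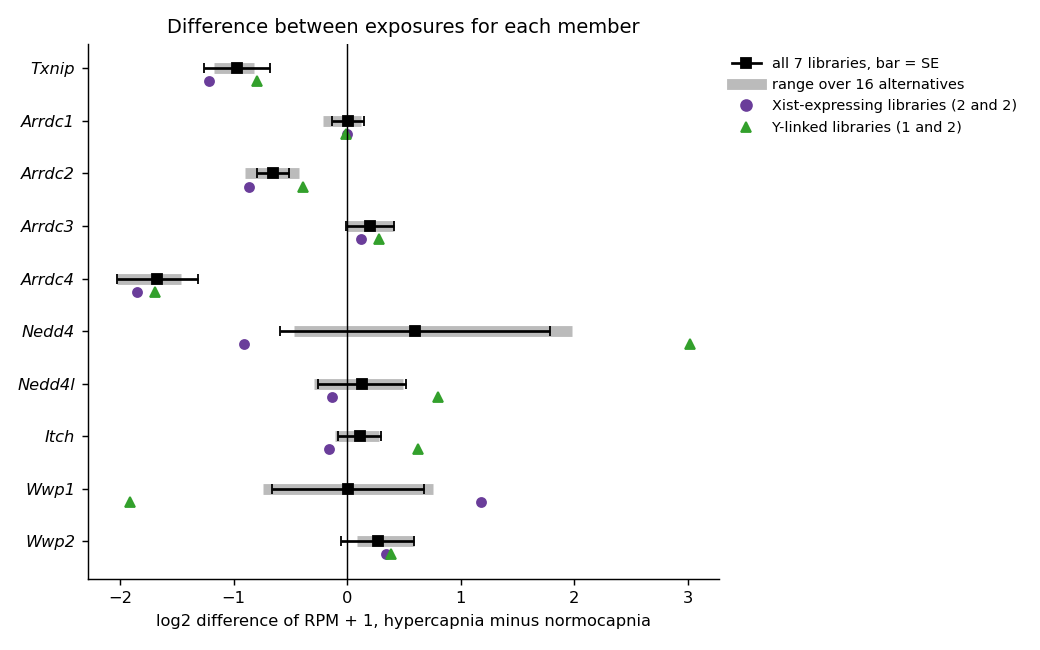
Log2 difference, hypercapnia minus normocapnia, of each member on the log2(RPM + 1) scale, with the SE over all 7 libraries, the range over 16 alternatives in grey, and the difference within the Xist libraries (circles) and the Y-linked libraries (triangles). Arrdc4 (-1.67), Txnip (-0.97) and Arrdc2 (-0.65) lie below 0 with their whole ranges, while Nedd4, Nedd4l, Itch and Wwp1 have opposite signs in the 2 classes.

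The wide ranges of Nedd4 and Wwp1 were set beside the marker levels, a choice made after their values had been seen. Each of the 10 members was correlated with Pax7 and with the sum of the macrophage markers over the 7 libraries, 20 relations in all, with two-sided exact permutation p-values. Nedd4 followed Pax7 with r = 0.996 (exact p = 0.000397, adjusted over 20 relations 0.00794) and rho = 0.964 (exact p = 0.00278, adjusted 0.0278), and r was 0.992 without NC1 and NC3. In likeness to Pax7, Nedd4 ranked 6 of 8228 genes. The ratio of Nedd4 to Pax7 was 0.46, 1.04 and 0.936 in normocapnia and 0.791, 0.882, 0.624 and 0.545 in hypercapnia. It thus varied far less than Nedd4 itself, and the groups overlapped. Nedd4 ran against the macrophage sum with r = -0.917 (exact p = 0.00615, adjusted 0.0615) and rho = -0.964 (exact p = 0.00278, adjusted 0.0278), and r was -0.601 without the same 2 libraries. Wwp1 ran with it at r = 0.855 (exact p = 0.0127, adjusted 0.0847), rho = 0.714 (adjusted 0.44), and 0.549 without the 2 libraries. Of the other members, Nedd4l ran against the macrophage sum at r = -0.857 (exact p = 0.0419, adjusted 0.192), which was 0.233 without the 2 libraries, and Arrdc3 ran with Pax7 at r = 0.753 (exact p = 0.048, adjusted 0.192) and 0.756 without them.

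For the 3 called alpha-arrestins r with Pax7 was 0.124 for Txnip, -0.35 for Arrdc4 and 0.058 for Arrdc2, and with the macrophage sum -0.182, 0.217 and -0.256. Without NC1 and NC3, over 5 libraries, r with Pax7 was 0.02 for Txnip, -0.384 for Arrdc4 and -0.348 for Arrdc2. Over the same 5 libraries r with the macrophage sum was -0.611 for Txnip, -0.198 for Arrdc4 and -0.365 for Arrdc2. Neither class of sex-linked expression holds enough libraries (4 and 3) for a correlation of its own. What part the mix of cells has in the level of any member was not tested.

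**Figure D4:**
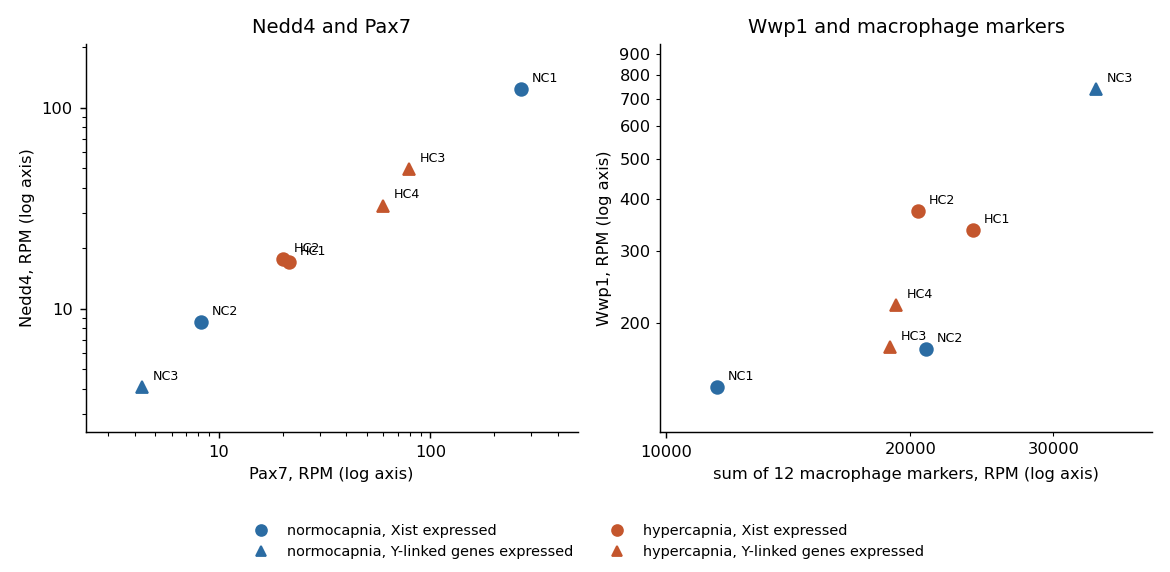
Nedd4 against Pax7, and Wwp1 against the sum of 12 macrophage markers, in RPM on log axes, 1 point per library. Nedd4 is higher where Pax7 is higher, with all 7 libraries near a line (r = 0.996), while the relation of Wwp1 (r = 0.855) leans on NC3 and NC1.

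The genes most like Arrdc4 and Txnip were listed by Pearson correlation of log2(RPM + 1) over the 7 libraries, among genes averaging 10 RPM or more, as a description. Closest to Arrdc4 were Slc38a2, an amino acid transporter (r = 0.981), Sbno1 (0.981), Zfp608 (0.98), Slk (0.98) and Auh (0.979). Closest to Txnip were Scaf8 (0.983), Ccdc117 (0.977), Traf6, a ubiquitin ligase of Toll-like receptor signalling (0.972), Nsd1, a histone methyltransferase (0.965), and Clasp2, a microtubule-binding protein (0.964). These values include the difference between the exposures. With each library taken as its deviation from the group mean, the closest to Arrdc4 were Nt5e, the ectonucleotidase that makes adenosine (0.992), Plekha3 (0.974), Fam20a (0.969), Zfp608 (0.964) and Rai14 (0.963). Those closest to Txnip were Scaf8 (0.963), Siglech (0.957), Scmh1 (0.955), Rap1gap2 (0.951) and Ggt5 (0.95). Zfp608 and Scaf8 were in both lists of their gene. Arrdc4 and Txnip correlated with each other at 0.81 over the libraries and at 0.30 by deviations, where Txnip ranked 1704 of 8228 genes in likeness to Arrdc4. The 7 libraries behind all these values share differences in depth and in cell mix.

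Other genes of the pathway were read from 7 lists of 46 genes, of which 45 were in the table and 41 reached at least 1 RPM in a group. Of these 0 were called higher and 0 lower by limma, beside 2.57% of all genes, with 3 (Arrb2, Mlx and Txn1) at an unadjusted p under 0.05; edgeR with its filter and DESeq2 each called 4 lower, Foxo1, Igf1r, Nlrp3 and Notch1, of 42 and 44 tested, with 0 after adjustment, beside 3.82% and 3.76% of all genes called lower in these fits. Without a filter edgeR called Vps4a in place of Notch1. By list, 0 of 4 other NEDD4-type ligases, 0 of 8 other arrestin-fold genes, 0 of 2 ligase adaptors, 0 of 6 transcriptional regulators, 0 of 7 thioredoxin system genes, 0 of 14 cargo and substrate genes and 0 of 4 ESCRT genes were called. The median log2 differences were 0.00, 0.00, 0.15, -0.17, -0.23, 0.10 and -0.22 in that order.

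For each list the 2 genes with the highest mean RPM are given. Txn1, the thioredoxin that Txnip binds, was at 986, 1099 and 975 RPM in normocapnia and 754, 718, 990.5 and 745 RPM in hypercapnia. HC3 lay among the normocapnia libraries and the other 3 hypercapnia libraries below them, with a log2 difference of -0.36 (SE 0.13), and Txnrd1, which reduces thioredoxin, differed by -0.23 (SE 0.20). Mlxip, which encodes the sugar-responsive MondoA, was at 139.5, 239 and 202 RPM and then 134, 152, 169.7 and 196 RPM. Its groups overlapped, at -0.23 (SE 0.22), as did those of Nr3c1, the glucocorticoid receptor, at 0.37 (SE 0.33).

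The classical arrestin Arrb2 was at 124, 116 and 135 RPM and then 133.5, 166, 161 and 155 RPM, a log2 difference of 0.30 (SE 0.09) that is below the fold threshold. HC1 alone overlapped with normocapnia. The retromer subunit Vps26a, which has an arrestin fold, differed by 0.30 (SE 0.33). Ndfip1 and Ndfip2, membrane adaptors that activate the ligases, differed by 0.16 (SE 0.07) and 0.14 (SE 0.13), and the further NEDD4-type ligases Smurf1 and Smurf2, which act on TGF-beta and BMP signalling, by 0.14 (SE 0.39) and -0.29 (SE 0.18). Among cargo and substrates, Sgk1, a kinase that restrains Nedd4l, was at 214, 469.7 and 89.6 RPM and then 317, 272, 347 and 354 RPM, and NC2 and NC3 were its extremes. Its log2 difference was 0.62 (SE 0.56), that of Junb, a substrate of Itch, 0.04 (SE 0.58), and those of the ESCRT genes Vps4a and Pdcd6ip -0.57 (SE 0.31) and 0.38 (SE 0.19).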

How the data were processed

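RNA of sorted Pax7-GFP+ cells was measured in 3 normocapnia and 4 hypercapnia libraries, grouped by the treatment label. The authors deposited a table of RPM (reads scaled to a common total), 1 column per library, from Ion AmpliSeq reads. The submitters' processing notes name the Transcriptome Analysis Console; the aligner and its reference were not stated in any source used here. RPM steps gave whole reads within 0.05 of a read for all values, so library totals (14527445 to 23388710) and reads were recovered; 2443 of 23930 genes were at 0 in all libraries.

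log2(RPM + 1) was fitted with limma 3.58.1 (R 4.3.3) over all genes; a call was an unadjusted p under 0.05 with a fold above 1.5, the thresholds of the study. Fold changes on this scale understate those of low genes. edgeR 4.0.16 (quasi-likelihood, TMM) and DESeq2 1.42.0 were run on the recovered reads. Alternatives were pseudocounts of 0.1 and 5 RPM, a mean of at least 1 RPM, median-of-ratios scaling, a replicate block, leaving out each library, and, added after seeing the data, sex-linked class as a covariate. Correlations used exact permutation tests (scipy 1.17.1). Fits and read recovery were tested on simulated data.

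The members and the gene and marker lists were chosen with earlier results of these data known. Named genes are the members, of each pathway list every called gene and the 2 with the highest mean RPM, and the 5 genes most like Arrdc4 and Txnip by each measure. Correlations with markers, and other genes named, were chosen after values were seen. Promoter windows were RefSeq's (GRCm38.p6); proteins were not analysed here. Injection timing is not used, since the table's title and the methods differ on the time.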

Additional observations from a re-analysis of the deposited data

Results flagged for a closer look

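Samples far from the others in their group were sought in 32 sets of values, of which chance alone sets apart about 1 in 20. Itch in hypercapnia was set apart by HC4 at 114 RPM, with the other 3 libraries at 99.3, 99.8 and 100.9 RPM. Txn1, the thioredoxin that Txnip binds, was set apart in hypercapnia by HC3 at 990 RPM, with the others at 718, 745 and 754 RPM. The difference between hypercapnia and normocapnia in the libraries with Y-linked expression, minus that in the libraries with Xist, was set apart for 2 ligases by an interaction term at an unadjusted p under 0.05. It was -3.09 (SE 0.29) for Wwp1 and 0.78 (SE 0.17) for Itch on the log2 scale. The same threshold was passed by 21.2% of all genes, and 2 of 10 members is close to that share. After adjustment over all genes 766 of 23930 genes (3.2%) passed, Wwp1 among them. Both rest on NC3, the only normocapnia library with Y-linked expression, and on the exposure values by which the members were chosen, so they restate where NC3 lies and are no test of the class.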

How the results depend on the processing

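Of the results recomputed under 16 alternatives, 185 values stayed near the main fit and 23 moved. A count stayed if it was within 1.5-fold of the main count. A log2 difference stayed if it changed by less than the residual SD between replicates. A call could be lost or gained within these limits, as Txnip lost its call without NC1. No called value changed sign, while uncalled members did: Nedd4 was below 0 in 4 of the 16 alternatives (edgeR, DESeq2 and without NC3), Wwp1 in 9, Arrdc1 in 8, Itch in 4 and Nedd4l in 1. The count of members called stayed at 2 or 3 throughout. Leaving out a library gave 2 to 3 members, 376 to 1990 genes and 0 to 4 pathway genes called; the highest gene count was without NC1 (1495 higher, 495 lower, with Nedd4 then called and Txnip not), and counts were 1205 without NC2, 385 without HC1 and 376 without HC2. The genes called numbered 1049 in edgeR without a filter, 1304 in DESeq2 and 1210 with the sex-linked class as a covariate, where all 3 members stayed called (Txnip -1.05, Arrdc2 -0.67, Arrdc4 -1.79). Pathway genes called numbered 1 with the filter on the mean, 2 with median-of-ratios scaling, 4 in each edgeR fit and in DESeq2, and 3 with the covariate. The log2 difference of Arrdc2 was -0.42 with a pseudocount of 5 RPM, -0.86 in edgeR with its filter, -0.85 unfiltered and -0.90 in DESeq2, and that of Arrdc1 was -0.21 in DESeq2. The cause was not tested. Deviations of same-numbered libraries from their group means correlated at r = -0.349, 0.503 and -0.044 for numbers 1 to 3. The value of 0.503 was the highest of all pairs between the groups. Same-numbered libraries also shared their class of sex-linked expression, Xist for numbers 1 and 2 and Y-linked for 3. These values cannot decide whether the numbers pair the libraries. A replicate block gave 598 genes, 3 members and 1 pathway gene (Foxo1) called. Low counts limit Nedd4l, Nedd4 and Arrdc2 most, with counting CVs of 17.4%, 13.0% and 11.0% in the library with the fewest reads.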

Other observations

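Genes of the pathway that limma did not call but that stood out otherwise are given as values, chosen after they were seen. Mlx, the partner of MondoA and ChREBP, had non-overlapping groups, at 65.0, 84.4 and 76.3 RPM in normocapnia and 122, 111, 94.2 and 112.7 RPM in hypercapnia. Groups did not overlap for 7.72% of all genes averaging 1 RPM or more. The log2 difference of Mlx was 0.54 (SE 0.12), which lies under the fold threshold of 1.5. Mlx was called higher in 2 of 16 alternatives, without NC2 and without HC3. Foxo1, a transcription factor of fasting and atrophy, was at 42.7, 20.9 and 73.9 RPM and then 10.4, 13.1, 25.5 and 22.5 RPM, with a log2 difference of -1.22 (SE 0.52), and was called lower in 7 of 16 alternatives. Its groups overlapped through NC2. Igf1r, a receptor that NEDD4-type ligases act on, was at 143, 101.9 and 42.8 RPM and then 38.1, 40.9, 66.0 and 69.3 RPM, and was called in 5 alternatives. Nlrp3, an inflammasome sensor that binds Txnip, was at 54.1, 515 and 119 RPM and then 89.3, 69.2, 108 and 78.1 RPM, so that its difference in edgeR (called in 3 alternatives) came with 1 high library, NC2. The glucose transporter Slc2a1, a cargo of Txnip and Arrdc4, was at 27.0, 42.0 and 32.1 RPM and then 29.6, 28.2, 54.1 and 41.8 RPM, with overlapping groups and a log2 difference of 0.16 (SE 0.28).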
